A study of Mus musculus with 3 samples.

Results

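Afp, H19, Gpc3, Dlk1, Cd24a, Ly6d, Lin28b, Igf2bp3, Meg3 and Tff3 are 10 genes known from fetal liver or from liver tumours, and they were followed in mouse livers that expressed human YAP. They were listed by name, by a rule that uses no measured value, out of 20292 named genes with a probe on the arrays. The 10 genes were chosen with earlier results of these data known, so their choice was not blind to these arrays. All 18 of their probes were examined. Of the 10 genes, 7 gave a signal well above background on all 3 arrays, and Dlk1, Lin28b and Igf2bp3 gave such a signal on none.

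The study introduced YAP into hepatocytes of c57BL6/J mice by hydrodynamic tail vein injection, and livers were taken at 2 days. The 3 livers carried YAP (WT), or YAP (1SA) or YAP (2SA), which are mutant forms the study describes as active. Per the study's methods, the injected mice were young adult males, and the human YAP cDNA was driven by the pLIVE vector, which joins an enhancer of the mouse AFP gene to a minimal albumin promoter. This vector works in hepatocytes and reaches only a minority of them, so each liver was a mosaic and the RNA came from the whole organ. No uninjected liver and no empty vector liver was among these arrays, and all 3 groups therefore shared the injection and a human YAP transgene. There was 1 array per group, no replicate and no test between groups, and group, liver sample and array position cannot be told apart. The title of the YAP (WT) array carries the number 2, and the sources used here do not say whether an array held RNA of 1 mouse or of a pool.

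The fetal hepatocyte makes alpha-fetoprotein, the product of Afp, as its main serum protein and switches the gene off after birth, while H19, Gpc3 and Dlk1 are silenced over the same period. In hepatocellular carcinoma several of these genes are switched on again, which is why their products are called oncofetal and why alpha-fetoprotein and glypican 3 serve as tumour markers. Lin28b and Igf2bp3 encode RNA-binding proteins of embryonic cells, Meg3 is a maternally expressed non-coding RNA, and Cd24a, Ly6d and Tff3 encode proteins found at the surface of, or secreted by, epithelial or blood cells.

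The promoters of Afp, Gpc3 and Meg3 are shown because Afp is the classic marker of the group and Gpc3 and Meg3 differed by 2-fold or more between the mutants. Promoter windows from RefSeq on GRCm38.p6 were held for 6 of the 10 members, in 7 windows. Each line gives the 250 bases before a RefSeq start of the gene, 5′ to 3′ on the gene's strand. The windows are chr5:90490464-90490713 on the plus strand for Afp, chrX:52613975-52614224 on the minus strand for Gpc3, and chr12:109540746-109540995 on the plus strand for Meg3. Capitals mark a GTTAAT element, which is a half-site of the hepatocyte factor HNF1, or a TATAAA element, the core of a TATA box.
Afp: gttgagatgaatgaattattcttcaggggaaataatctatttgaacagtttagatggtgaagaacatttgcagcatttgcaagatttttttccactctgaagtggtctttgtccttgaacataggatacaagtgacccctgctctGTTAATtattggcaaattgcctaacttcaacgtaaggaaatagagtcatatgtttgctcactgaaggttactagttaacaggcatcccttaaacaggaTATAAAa
Gpc3: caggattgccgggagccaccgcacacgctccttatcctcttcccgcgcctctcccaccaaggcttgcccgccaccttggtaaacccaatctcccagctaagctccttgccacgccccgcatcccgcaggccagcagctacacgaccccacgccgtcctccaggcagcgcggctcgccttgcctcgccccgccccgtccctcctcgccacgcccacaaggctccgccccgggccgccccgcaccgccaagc
Meg3: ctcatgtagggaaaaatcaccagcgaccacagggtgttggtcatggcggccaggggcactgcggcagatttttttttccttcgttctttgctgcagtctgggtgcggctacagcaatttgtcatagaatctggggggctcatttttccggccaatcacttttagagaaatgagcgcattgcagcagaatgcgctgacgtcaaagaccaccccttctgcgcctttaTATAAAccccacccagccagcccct
The Afp window held GTTAAT 105 to 100 bases before the start and TATAAA 7 to 2 bases before it. The Meg3 window shown held TATAAA 25 to 20 bases before the start, and the Gpc3 window held none of the searched elements. Meg3 also had a window at another RefSeq start, chr12:109545148-109545397, not shown, which held none of them either. GGAATG, the element bound by the TEAD factors through which YAP acts, was searched on both strands and was present in 0 of the 7 member windows. Over all 32851 windows, GGAATG was present in 12.6%, GTTAAT on either strand in 6.43% and TATAAA on the gene's strand in 7.59%. No 2 of these matches overlapped, and a match or its lack in this window is a description of the letters alone.

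The values below are spot intensities as the scanner software reported them, and a level is the log2 of an intensity over the array's 75th percentile, which was 291 for YAP (WT), 276 for YAP (1SA) and 319 for YAP (2SA). Differences are differences of these levels. Their ± values are the scanner software's error for the spots, which does not cover the spread between mice. The brightness of different probes is not comparable, so genes are set against each other only by their differences between arrays. Where the levels of a marker list are summed, the sum serves to compare arrays and follows the brighter probes of the list, and the median difference weighs each marker alike. In bulk liver RNA, fewer cells of a type and less RNA per cell cannot be told apart. As a check of the tissue, all 8 hepatocyte markers examined, Alb and Serpina1a among them, were well above background on every array.

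Against YAP (WT), 1 of the 7 measured members was at least 2-fold higher in YAP (1SA), Tff3, and 1 was at least 2-fold lower, Ly6d. Among all 13628 genes measured on the 3 arrays, 0.726% passed 2-fold upwards and 1.14% downwards in this comparison. In YAP (2SA), 1 member was at least 2-fold higher than in YAP (WT), Gpc3, and 0 were lower, where 1.12% of all genes were higher and 0.543% lower. Between the mutants, Gpc3 and Ly6d were at least 2-fold higher and Tff3 and Meg3 at least 2-fold lower in YAP (2SA) than in YAP (1SA), and over all genes 2.47% were higher and 1.12% lower. With 7 measured genes, each of these counts rests on 1 or 2 genes.

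The median log2 difference of the 7 members from YAP (WT) was -0.24 in YAP (1SA) and 0.03 in YAP (2SA), beside medians of -0.002 and -0.03 over all genes. In YAP (1SA), 5 of the 7 were lower than in YAP (WT) and 2 higher, and in YAP (2SA) 3 were lower and 4 higher. The 7 members did not move as 1 block. Afp, Gpc3, Cd24a and Ly6d were lowest in YAP (1SA), Tff3 and Meg3 were highest there, Afp, Gpc3, Cd24a and Ly6d were highest in YAP (2SA), and H19 was highest in YAP (WT). Over all genes, 34.4% were lowest in YAP (1SA), 38.5% highest in YAP (1SA), 31.3% highest in YAP (2SA) and 30.3% highest in YAP (WT).

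**Figure D1:**
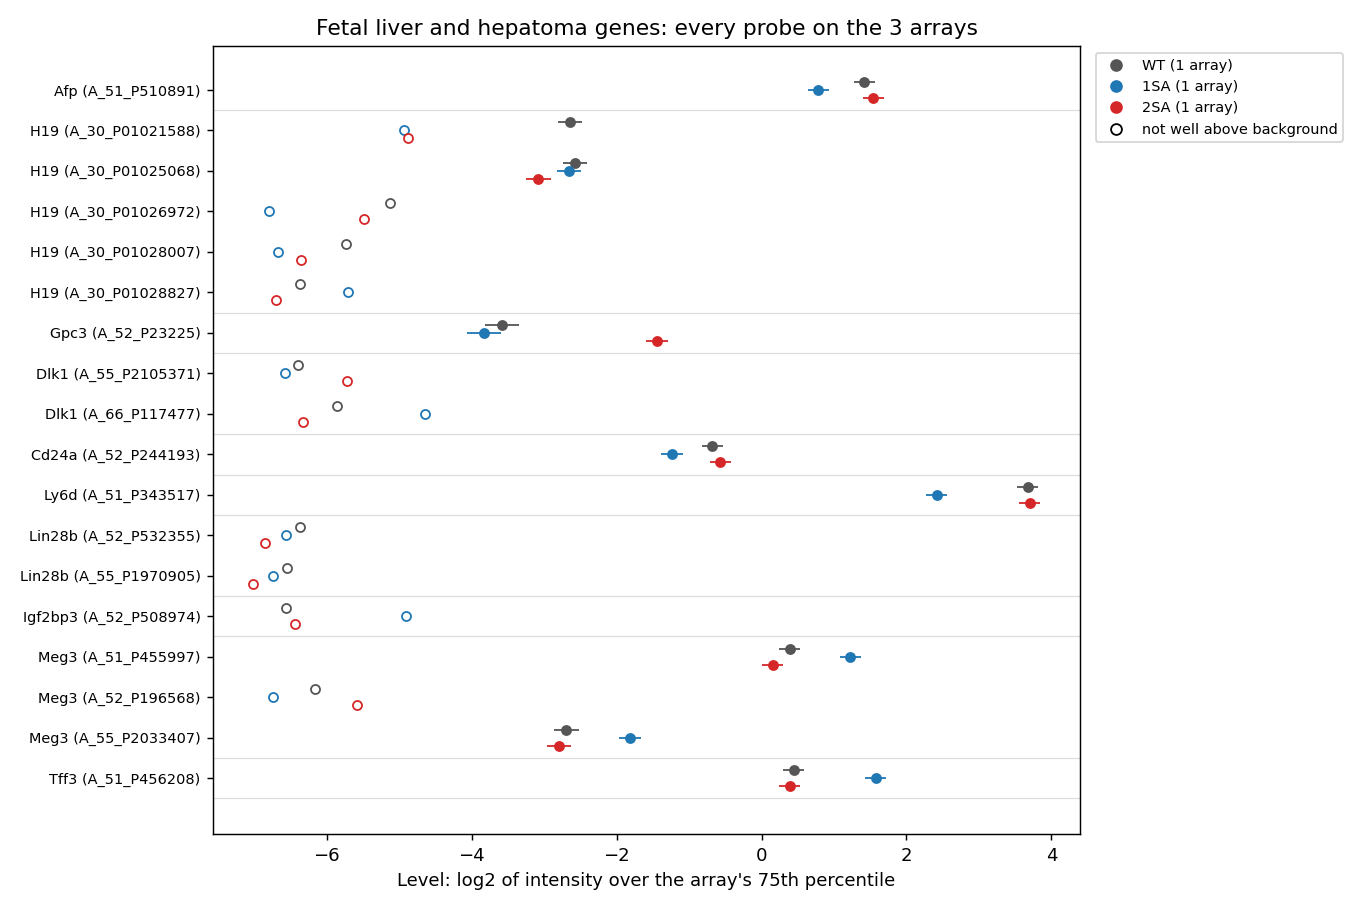
Level of every probe of the 10 genes on the 3 arrays, as the log2 of intensity over the array's 75th percentile; grey is WT, blue 1SA and red 2SA, 1 array each, and bars are the scanner software's error for the spots. Open circles are probes not well above background, which include all probes of Dlk1, Lin28b and Igf2bp3.

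Afp had the intensities 776 in YAP (WT), 475 in YAP (1SA) and 930.4 in YAP (2SA). YAP (1SA) was the low array, and the other two lay close together. The log2 difference from YAP (WT) was -0.63 ± 0.20 in YAP (1SA), or 1.55 times lower, and 0.13 ± 0.20 in YAP (2SA), which is within the scanner error. YAP (2SA) was 0.76 ± 0.20 above YAP (1SA).

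The Afp probe was printed 10 times on each array, which gave the only repeated measure of a member. After 1 outlier spot of YAP (WT) was left out, intensity relative to the 75th percentile was 2.67 ± 0.0708 over 9 spots in YAP (WT), 1.72 ± 0.0747 over 10 spots in YAP (1SA) and 2.91 ± 0.0813 over 10 spots in YAP (2SA), each as mean and SD. The spots ran from 2.53 to 2.76, from 1.59 to 1.81 and from 2.77 to 3.04 in that order. No spot of one array overlapped the range of another, though YAP (WT) and YAP (2SA) nearly touched. The spots are repeats of 1 RNA sample and do not stand for mice.

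**Figure D2:**
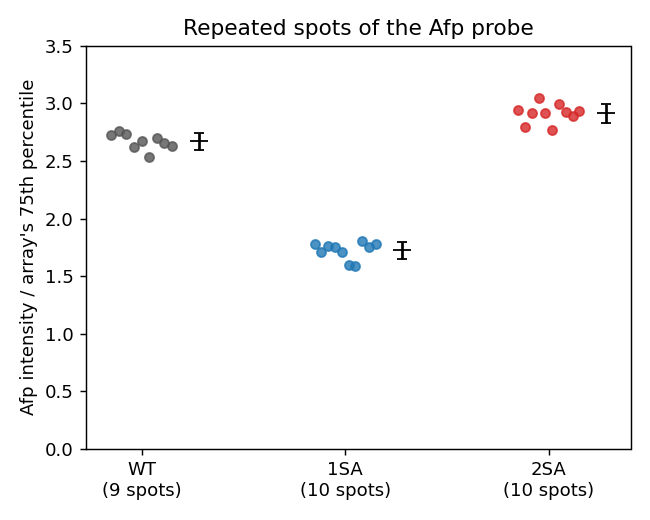
Intensity of each Afp spot relative to its array's 75th percentile, on a linear scale, for the 3 arrays, with the mean and SD over spots. The YAP (1SA) spots lie between 1.59 and 1.81, below all spots of the other two arrays, which lie between 2.53 and 3.04.

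Gpc3, which encodes a heparan sulfate proteoglycan anchored in the cell membrane, had the intensities 24.3 in YAP (WT), 19.4 in YAP (1SA) and 117 in YAP (2SA). It was dim in YAP (WT) and YAP (1SA) and clearly brighter in YAP (2SA). The difference from YAP (WT) was 2.14 ± 0.27 on the log2 scale in YAP (2SA), or 4.40-fold higher, and -0.24 ± 0.33 in YAP (1SA), which is within the scanner error. YAP (2SA) was 5.22-fold above YAP (1SA), at 2.38 ± 0.28.

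The Gpc3 value rests on 1 spot per array in the dimmest of 3 equal groups of probes by signal, where 1.16% of probes were at least 2-fold higher in YAP (2SA) than in YAP (WT). Normexp background correction starts from the median spot and background signals and adds an offset of 50 to every spot. With it, the Gpc3 difference between YAP (2SA) and YAP (WT) fell to 0.91 and no longer passed 2-fold. Among the other glypicans, the log2 difference between YAP (2SA) and YAP (WT) was -0.54 for Gpc1, -0.01 for Gpc4 and 0.27 for Gpc5, and Gpc2 and Gpc6 were not well above background on any array. Gpc3 was thus the only glypican of the 4 measured that passed 2-fold.

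H19 is a non-coding RNA of the imprinted region that also holds Igf2. Its brightest probe measured on every array had the intensities 48.8, 43.8 and 37.9 in YAP (WT), YAP (1SA) and YAP (2SA). These were dim signals, lowest in YAP (2SA), with log2 differences from YAP (WT) of -0.08 ± 0.24 in YAP (1SA) and -0.50 ± 0.24 in YAP (2SA).

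The probes of H19 disagreed in size. A probe that was well above background in YAP (WT) alone had the intensities 46.6, 9.07 and 10.8, which makes it at least 4.30-fold lower in YAP (1SA) and at least 4.72-fold lower in YAP (2SA). The 3 other H19 probes were not well above background on any array. These probes carry the name H19 in the array's design only, with no transcript accession, and which parts of the transcript they cover was not known here. H19 is also listed as an older name of Nckap1, a gene of the actin machinery, so the H19 values hold only as far as the design's name is right.

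Meg3, expressed from the maternal copy of the imprinted cluster that also holds the paternally expressed Dlk1, had the intensities 380.1 in YAP (WT), 644 in YAP (1SA) and 356 in YAP (2SA). It was highest in YAP (1SA), by 0.84 ± 0.20 on the log2 scale or 1.79-fold over YAP (WT), and YAP (2SA) lay -0.23 ± 0.20 from YAP (WT). A second, dimmer probe gave 0.88 ± 0.23 and -0.10 ± 0.24 for the same differences, and a further probe was not well above background on any array. YAP (2SA) was 2.10 times lower than YAP (1SA), at -1.07 ± 0.20.

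Mirg, a non-coding RNA of the same cluster on the maternal copy, had the intensities 41.7, 78.1 and 35.7 in YAP (WT), YAP (1SA) and YAP (2SA). It had the same order of arrays as Meg3, with log2 differences from YAP (WT) of 0.98 in YAP (1SA) and -0.36 in YAP (2SA). On the paternal side, the probes of Dlk1, which encodes a membrane protein of the Delta family found on fetal hepatoblasts, gave 3.46, 2.89 and 6.07 for one and 5.003, 11.0 and 3.98 for the other, none well above background. Rtl1, a further paternally expressed gene of the cluster, was not well above background on any array either.

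Over the list of 15 genes of the imprinted gene network, a group of growth-related genes expressed in fetal tissue, 14 had a named probe and 9 were measured. The median log2 difference from YAP (WT) was 0.0050 in YAP (1SA) and -0.33 in YAP (2SA), with 0 genes at least 2-fold apart from YAP (WT) in either. Between the mutants 1 gene, Mirg, was at least 2-fold lower in YAP (2SA), at -1.34. Igf2, the fetal growth factor beside H19, as well as Peg3 and Peg10, was not well above background on any array. Dcn, which encodes decorin, had the intensities 5596, 5705 and 4127 and lay -0.57 from YAP (WT) in YAP (2SA). Among markers of stellate cells, which make decorin, 4 of 5 were measured on all 3 arrays. Their summed level relative to the 75th percentile, Dcn included, was 20.3 in YAP (WT), 21.8 in YAP (1SA) and 13.6 in YAP (2SA), and all 4 were lower in YAP (2SA) than in YAP (WT), with a median of -0.59. Reln, the remaining marker, was above background in YAP (1SA) alone, at least 3.40 times lower in YAP (2SA) than there. The part of these cells in the Meg3 and Dcn values was not tested.

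Lin28b, which blocks the maturation of let-7 microRNAs, gave intensities of 3.53, 2.91 and 2.78 with one probe and 3.11, 2.57 and 2.46 with the other. Neither was well above background on any array. Igf2bp3, which binds and stabilises mRNAs, gave 3.08, 9.20 and 3.70 and was not well above background either. For Lin28b, Igf2bp3 and Dlk1 a difference below the background was not detectable on these arrays.

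Their relatives behaved in different ways. Dlk2, the relative of Dlk1, had no named probe. Lin28a was measured at 261, 282 and 263, with log2 differences from YAP (WT) of 0.19 in YAP (1SA) and -0.13 in YAP (2SA). Igf2bp2 lay -0.62 from YAP (WT) in YAP (1SA) and -0.09 in YAP (2SA). Igf2bp1 was well above background in YAP (2SA) alone, with 3.17, 3.01 and 24.2, which makes YAP (2SA) at least 1.76-fold higher than YAP (WT) and at least 2.03-fold higher than YAP (1SA).

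Ly6d, a small membrane-anchored protein of the Ly6 family known from early B cells and squamous epithelium, had the intensities 3702 in YAP (WT), 1472 in YAP (1SA) and 4159 in YAP (2SA). YAP (1SA) was the low array, at -1.25 ± 0.20 or 2.38 times lower than YAP (WT), and YAP (2SA) lay 0.03 ± 0.20 from YAP (WT). YAP (2SA) was 2.44-fold above YAP (1SA). The probe was in the brightest of the 3 groups by signal, where 0.364% of probes were at least 2-fold lower in YAP (1SA) than in YAP (WT).

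Other Ly6 genes were measured beside it. Ly6a, Ly6c1, Ly6e and Ly6g6d lay between -0.74 and -0.25 from YAP (WT) in YAP (1SA) and between -0.22 and 0.45 in YAP (2SA), so all 4 were lowest in YAP (1SA). A second probe of Ly6c1 gave -0.13 and 1.06. Ly6k went the other way, at 0.30 and -0.37. Ly6h was high in YAP (WT) alone, with 396, 16.4 and 17.6, at -4.52 and -4.63 from YAP (WT), and its second probe was not well above background on any array.

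Cd24a, which encodes a heavily glycosylated surface protein of immature blood cells and of bile duct epithelium, had the intensities 182 in YAP (WT), 117 in YAP (1SA) and 215 in YAP (2SA). It followed the order of Ly6d and Afp, with YAP (1SA) the low array at -0.56 ± 0.21, or 1.47 times lower than YAP (WT), and YAP (2SA) at 0.11 ± 0.21. YAP (2SA) was 1.58-fold above YAP (1SA). With normexp the value for YAP (1SA) was -0.38.

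Markers of bile duct cells were low on the same array as Afp, Cd24a and Ly6d. All 6 were well above background on every array, and 5 of the 6 were lower in YAP (1SA) than in YAP (WT), with a median of -0.78 there and of 0.01 in YAP (2SA). Their summed level relative to the 75th percentile was 13.9 in YAP (WT), 5.01 in YAP (1SA) and 11.6 in YAP (2SA). Spp1, which encodes osteopontin, had the intensities 3536, 1009 and 3132 and lay -1.73 from YAP (WT) in YAP (1SA). Krt19, a keratin that defines bile duct cells, had 134, 71.9 and 139.6 in the same order. Their part in the values of the 3 members was not tested.

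Markers of B cells, in which Ly6d and Cd24a are also found, were measured as well. Of 5 markers, 3 were measured on all 3 arrays, and their summed level was 1.08 in YAP (WT), 1.14 in YAP (1SA) and 1.22 in YAP (2SA), with median differences from YAP (WT) of 0.06 in YAP (1SA) and 0.19 in YAP (2SA). Cd79b, a subunit of the B cell receptor, lay 0.06 and 0.19 from YAP (WT), and Ms4a1, which encodes CD20, lay 0.03 and -0.07. Pax5, which defines the lineage, was not well above background on any array. Of the T cell markers, all 4 were measured, and their summed level was 4.48, 4.58 and 4.37 in the same order of arrays. Their median difference from YAP (WT) was -0.16 in YAP (1SA) and 0.41 in YAP (2SA), where 3 of the 4 were higher, and it was 0.62 between YAP (2SA) and YAP (1SA). Cd3g, a subunit of the T cell receptor complex, passed 2-fold between the mutants at 1.22. The part of B and T cells in the members' values was not tested.

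Tff3, a secreted peptide of the trefoil family made by goblet cells of the gut, had the intensities 395 in YAP (WT), 821 in YAP (1SA) and 419 in YAP (2SA). YAP (1SA) was the high array, at 1.13 ± 0.20 or 2.19-fold over YAP (WT), and YAP (2SA) lay -0.05 ± 0.20 from YAP (WT). YAP (2SA) was 2.27 times lower than YAP (1SA), at -1.18 ± 0.20. In the middle of the 3 groups by signal, where this probe lay, 0.610% of probes were at least 2-fold higher in YAP (1SA) than in YAP (WT).

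The other trefoil genes did not share this order. Tff2 was lowest in YAP (1SA), at -0.70 from YAP (WT), and lay -0.11 from it in YAP (2SA). Tff1 was well above background in YAP (2SA) alone, with 8.75, 5.50 and 114, which is at least 8.32-fold over YAP (WT) and at least 9.62-fold over YAP (1SA), while its second probe was not well above background on any array.

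Of 5 gut markers, 2 were measured on every array, and both were lower in YAP (1SA) than in YAP (WT). Their summed level was 52.2 in YAP (WT), 37.7 in YAP (1SA) and 38.2 in YAP (2SA). Fabp2, an intestinal fatty acid carrier, lay -0.40 from YAP (WT) in YAP (1SA) and -0.52 in YAP (2SA). Lgals4, an intestinal galectin, had 1644, 665 and 1819.9 and lay -1.23 from YAP (WT) in YAP (1SA) and 0.01 in YAP (2SA). Vil1, which encodes villin, was not well above background in YAP (1SA), where it was at least 2.07 times lower than in YAP (WT), and lay -0.65 from YAP (WT) in YAP (2SA). Muc2 and Cdx2, which define goblet and intestinal cells, were not well above background on any array, nor were Prss2, Cpa1 and Pnlip of the pancreas, while the pancreatic elastase genes Cela1 and Cela2a lay -0.08 and 0.11 from YAP (WT) in YAP (1SA) and -0.69 and 0.44 in YAP (2SA).

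**Figure D3:**
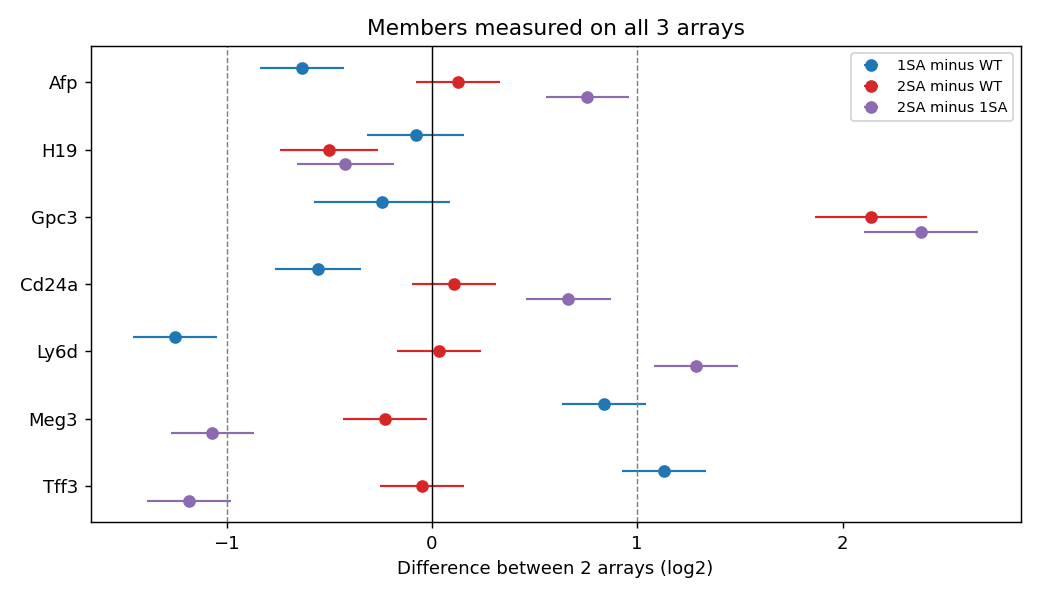
Log2 difference of each measured member for 1SA minus WT (blue), 2SA minus WT (red) and 2SA minus 1SA (purple), with the scanner software's error as bars and dashed lines at 2-fold. In 1SA minus WT, Tff3 and Meg3 lie above 0 at 1.13 and 0.84 and Ly6d lies lowest at -1.25, and in 2SA minus WT Gpc3 stands apart at 2.14.

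**Figure D4:**
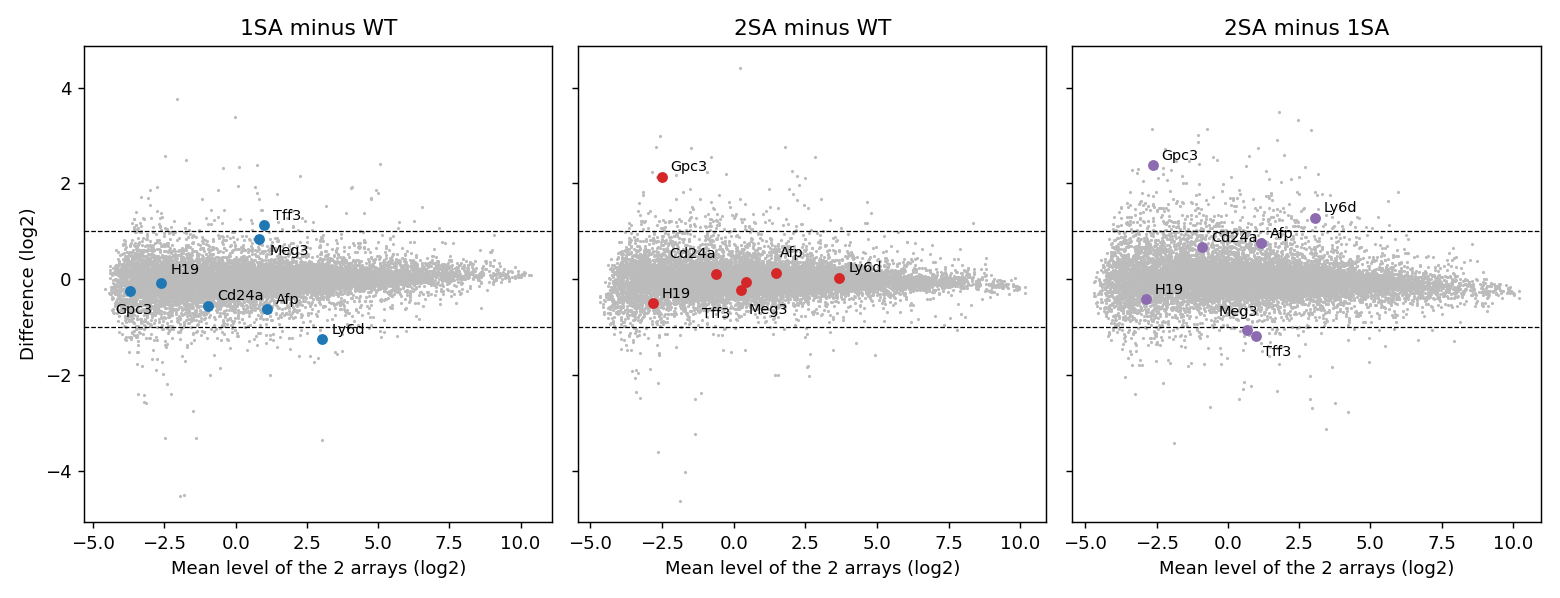
Log2 difference against mean level for all 13628 measured genes (grey) with the 7 measured members named, in the 3 comparisons; dashed lines mark 2-fold. Gpc3 lies among the dim genes on the left, where the spread of all genes is wide, and Ly6d among brighter ones.

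Afp itself lies beside Alb, Gc and Afm in the albumin gene family, which hepatocytes express together after birth except for Afp. The log2 differences of Alb, Gc and Afm from YAP (WT) were 0.10, 0.06 and 0.10 in YAP (1SA) and -0.29, -0.17 and -0.23 in YAP (2SA). In YAP (1SA) these 3 genes were thus slightly above YAP (WT), while Afp was below it at -0.63. Over the 8 hepatocyte markers, the median difference was 0.08 in YAP (1SA) and -0.16 in YAP (2SA).

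Regulators known to act on Afp were followed as a list of 13 genes, of which 12 were measured. The median difference from YAP (WT) was -0.02 in YAP (1SA) and -0.09 in YAP (2SA). One gene was at least 2-fold lower in YAP (2SA) than in YAP (WT), Onecut1, a hepatocyte transcription factor also called HNF6, with 326, 406 and 159.8 and a difference of -1.17. Its level was also -1.56 below YAP (1SA).

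Zbtb20, which represses Afp in the adult liver, had 2247, 2981 and 3001 and lay 0.48 and 0.28 above YAP (WT) in YAP (1SA) and YAP (2SA). Zhx2, another repressor of Afp and H19 after birth, was not well above background on any array. Hnf4a, a master factor of the hepatocyte, lay 0.27 and -0.12 from YAP (WT), and Foxa2 and Foxa3 both lay -0.80 from it in YAP (2SA) and -0.10 and 0.04 in YAP (1SA).

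Of a list of 14 further fetal liver and oncofetal genes, 10 were measured on all 3 arrays, and 0 of these 10 were at least 2-fold apart in any of the 3 comparisons. Igf2bp1, also on the list, passed 2-fold between the mutants as the bound given above. For the 10 measured genes, the median difference from YAP (WT) was -0.25 in YAP (1SA) and -0.07 in YAP (2SA). Hmga1, a chromatin protein, had the intensities 4600.2, 4363 and 5393, and Lpl, the lipoprotein lipase that fetal liver expresses, had 2561, 1945 and 3275. Their differences were 0.00 and 0.09 for Hmga1 and -0.32 and 0.22 for Lpl. Epcam, a surface marker of hepatoblasts and bile duct cells, lay -0.90 from YAP (WT) in YAP (1SA) and -0.06 in YAP (2SA), beside the bile duct markers named above.

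**Figure D5:**
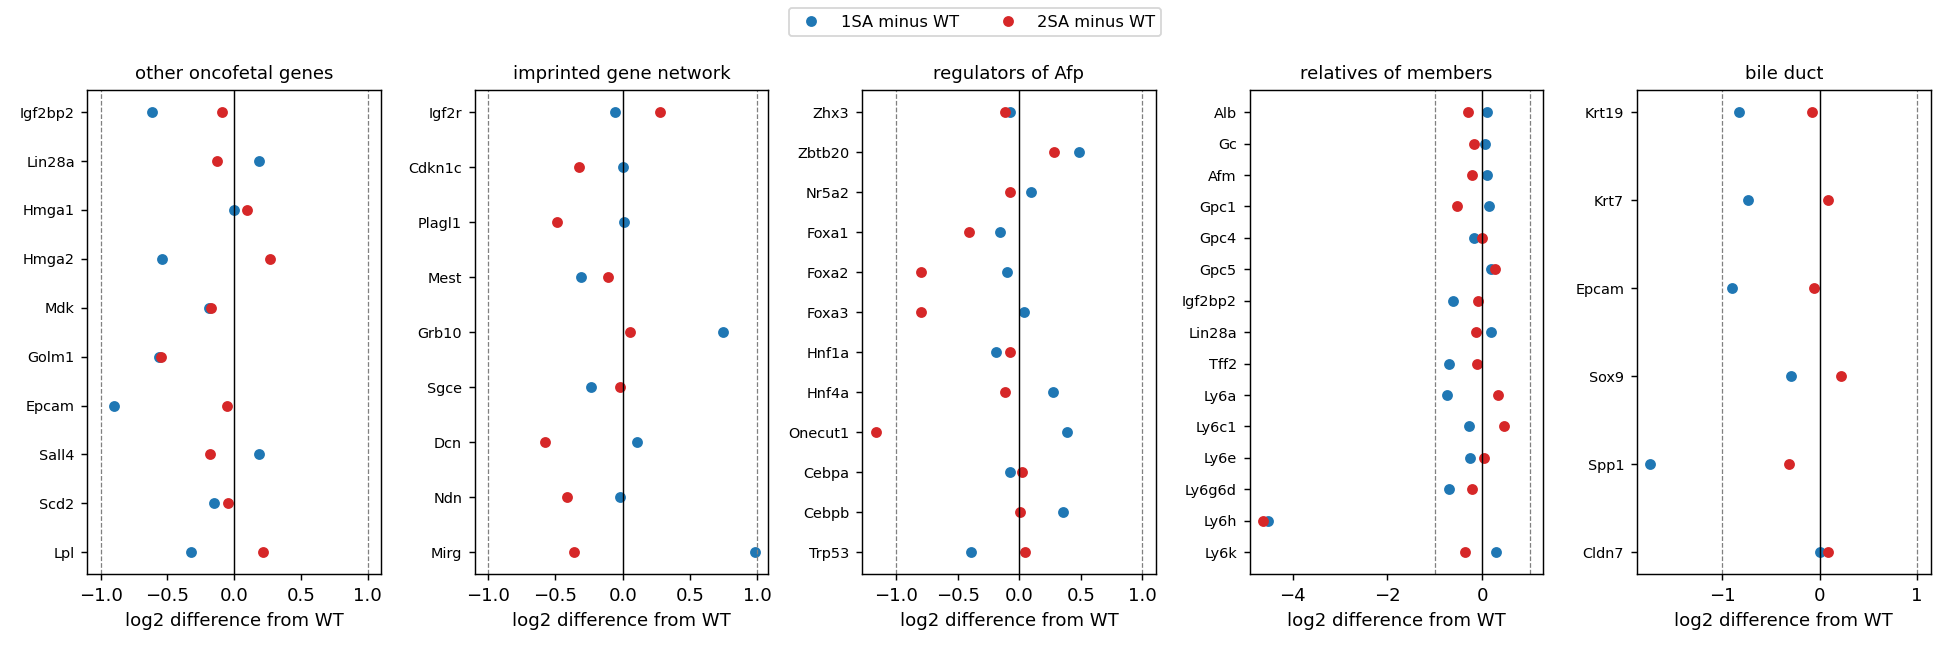
Log2 difference from YAP (WT) of each measured gene of the related lists and of the bile duct markers, in YAP (1SA) (blue) and YAP (2SA) (red); dashed lines mark 2-fold. Onecut1 at -1.17 in YAP (2SA), Ly6h below -4 in both and Spp1 at -1.73 in YAP (1SA) are the points past 2-fold.

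Cell cycle genes, which rise when hepatocytes divide, differed from the members in that all 9 examined were higher in both mutants than in YAP (WT), with medians of 0.67 in YAP (1SA) and 0.78 in YAP (2SA). Top2a, Ccna2 and Cdk1 were at least 2-fold higher in YAP (2SA) than in YAP (WT). All 5 Kupffer cell markers were measured, with medians of -0.36 in YAP (1SA) and -0.90 in YAP (2SA) and summed levels of 147, 120.2 and 81.0 in YAP (WT), YAP (1SA) and YAP (2SA). In YAP (1SA) 2 of the 5 were higher than in YAP (WT) and 3 lower, and in YAP (2SA) all 5 were lower. Clec4f, which defines these liver macrophages, lay 0.45 from YAP (WT) in YAP (1SA) and -1.56 in YAP (2SA). Adgre1, a further marker, lay -0.49 and -0.16 from YAP (WT), and its second probe -0.38 and 0.14. Of 5 red cell lineage markers, 4 were measured, with medians of 0.41 and 0.08 and summed levels of 56.0, 92.1 and 69.3. The haemoglobin gene Hba-a1 lay 0.90 and 0.45 from YAP (WT) in YAP (1SA) and YAP (2SA), and Alas2, which starts haem synthesis in red cells, lay 0.43 and 0.09. Epor went the other way, at -0.34 and -0.31. Of 5 neutrophil markers, 3 were measured, with medians of 0.22 and 0.13 and summed levels of 2.73, 2.81 and 3.07, and S100a9 and Camp lay -0.11 and 0.22 from YAP (WT) in YAP (1SA) and 0.13 and 0.04 in YAP (2SA). All 4 markers of sinusoidal endothelium were measured, with medians of -0.03 and -0.07 and summed levels of 49.7, 51.9 and 39.1. Stab2 and Clec4g both lay 0.12 from YAP (WT) in YAP (1SA) and -0.21 and -0.59 in YAP (2SA). Stab1 and Lyve1 went the other way, at -0.24 and -0.17 in YAP (1SA) and 0.07 and 0.37 in YAP (2SA). The part of these cells in the members' values was not tested.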

How the data were processed

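Livers of 3 groups were measured on 1 one-colour Agilent array each, all on 1 slide. The authors scanned the arrays with Feature Extraction 10.10.1.1, and the deposited intensity of a spot is background-subtracted and detrended but not scaled between arrays. The deposited series matrix holds the same intensity times 1 constant per array, of 3.02, 3.08 and 2.81 for WT, 1SA and 2SA, with a source not stated; it served as an alternative, its medians being 61.8, 58.4 and 62.3.

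Outlier spots (181, 148 and 182 on WT, 1SA and 2SA) were left out, log2 intensities averaged over the spots of a probe, and each array centred on the 75th percentile of its non-control spots. A probe was measured where at least 50% of its spots were marked well above background, and the brightest probe measured throughout stood for a gene. A probe above background on 1 side only gave a bound, from the higher of the dim value and the lowest signal above background on that array. Probes (26775 of 55681) were named by RefSeq accession against a table of GRCm38.p6, and H19 by the design's own name; the arrays' build is mm9, so that table gave names only. No spot was saturated. Repeated spots had a median SD of 0.07 on the log2 scale, or 0.10 for a difference. The number of arrays limits the precision, and with 1 per group no p-value was computed.

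The members and gene lists were chosen with earlier results of these data known. All members and all relatives of members were named; of the other lists, the genes at least 2-fold apart in a comparison (bounds included), otherwise the 2 of highest signal, and the other genes named were chosen after their values were seen. Scripts were tested on simulated data. Alternatives were other scalings, quantile normalisation, normexp (offset 50, limma 3.58.1, R 4.3.3, on median spot and background signals), the series matrix, other filters on dim probes, the mean of all probes, and 3-fold and 1.5-fold limits. Python 3.11.15, pandas 2.3.3, numpy 2.4.6 and matplotlib 3.10.9 were used.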

Additional observations from a re-analysis of the deposited data

Results flagged for a closer look

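Of the measured members, Gpc3 and Meg3 lay on opposite sides of YAP (WT) in the mutants by more than 0.21 on the log2 scale on each side, which is 2 SD of a difference as given by repeated spots; Afp, Cd24a, Ly6d and Tff3 also had opposite signs, with YAP (2SA) nearer to YAP (WT) than that. No such difference was tested, since each group held 1 array. Gpc3 was 2.38 higher on the log2 scale in YAP (2SA) than in YAP (1SA), with YAP (1SA) at -0.24 ± 0.33 from YAP (WT), within the scanner error, and at 0.003 under normexp. Meg3 was at -1.07 in YAP (2SA) against YAP (1SA), and its second probe gave -0.98, with YAP (2SA) only -0.10 from YAP (WT).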

How the results depend on the processing

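No difference of a member that was at least 2-fold changed sign, and 18 of 21 member differences kept 1 sign under every alternative that gave them a value; the exceptions were near 0 (Gpc3 and H19 in YAP (1SA), Tff3 in YAP (2SA)). Under normexp, members at least 2-fold higher in YAP (2SA) fell to 0 against YAP (WT), beside 0.455% of all genes. Against YAP (1SA) they fell to 1, beside 1.11%, and those lower fell to 0 (Meg3 -0.97, Tff3 -0.99), beside 0.396%. The medians became -0.14 for oncofetal genes in YAP (1SA) and -0.052 for relatives between the mutants. For imprinted genes in YAP (2SA) they became -0.20 against YAP (WT) and -0.28 against YAP (1SA). With the series matrix, 1 member was at least 2-fold lower in YAP (2SA) than in YAP (1SA), beside 0.895% of all genes, Meg3 being at -0.99. With no filter, which adds probes in the background, 3 members were higher in YAP (1SA) than in YAP (WT), beside 2.73% of all genes. Between the mutants 4 were lower in YAP (2SA), beside 3.38%. The imprinted medians in YAP (2SA) were then -0.22 against YAP (WT) and -0.17 against YAP (1SA). The stricter filter leaves out Gpc3, H19 and Cd24a. In YAP (2SA), 0 members were then higher against YAP (WT), beside 0.688% of all genes, and 1 against YAP (1SA), beside 1.71%. The medians for relatives were 0.060 in YAP (1SA) against YAP (WT) and -0.23 between mutants. For imprinted genes in YAP (2SA) they were -0.018 against YAP (WT) and 0.22 against YAP (1SA). At 3-fold, 0 members were higher and 0 lower in YAP (1SA), beside 0.191% and 0.213% of all genes. Between mutants 1 member was higher and 0 lower at 3-fold, beside 0.631% and 0.249%. At 1.5-fold, 2 members were higher and 2 lower in YAP (1SA), beside 3.07% and 4.67%. Between mutants 4 were higher at 1.5-fold, beside 6.99%. Of all genes, those at least 2-fold higher and lower were 99 and 155 in YAP (1SA), 153 and 74 in YAP (2SA) and 337 and 153 between mutants. Under normexp they were 50 and 48, 62 and 24, and 151 and 54. With no filter they were 553 and 790, 585 and 724, and 840 and 685, out of 20274 genes in place of 13628. Among genes at least 2-fold apart between YAP (1SA) and YAP (WT), normexp moved the share that was higher in YAP (1SA) from 39.0% to 51.0%. The cause was not tested. No paired analysis was possible because there was only 1 array per group, and leaving out an array or fitting the slide as a block was not possible for the same reason. Signal over background limits Dlk1, Lin28b and Igf2bp3.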
